A study of Mus musculus with 10 samples.

Results

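Hemoglobin carries oxygen in red cells, and 5 genes of its production were followed across cells sorted by lineage from the adult mouse lung. Hba-a1 (ENSMUSG00000069919) and Hba-a2 (ENSMUSG00000069917) encode the adult alpha-globin chain, and Hbb-bs (ENSMUSG00000052305) and Hbb-bt (ENSMUSG00000073940) the adult beta-globin chain. Alas2 (ENSMUSG00000025270) encodes the erythroid form of aminolevulinate synthase, which starts heme synthesis in developing red cells. The 5 genes were taken by name from the 14854 in the tables. They were chosen by their log2 values in these same libraries, in which hemoglobin transcripts had been seen high in the Negative lineage, so their levels are a description and carry no test. All 5 were among the 14177 genes kept by a filter that asks for 2 or more libraries with a log2 value of 6 or higher. In the 8 libraries outside the Negative lineage, Hba-a1 reached that level in 7, Hbb-bs in 6, Hbb-bt and Alas2 in 4 each, and Hba-a2 in 3.

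A hemoglobin molecule pairs alpha-like with beta-like chains, each of which holds a heme group with an iron atom at its centre. In the red cell lineage the globin genes and Alas2 are switched on together by GATA1, KLF1 and their partners, while iron enters through the transferrin receptor and the remaining heme enzymes are shared with most other tissues. Red cells of mammals lose their nucleus, but their youngest form, the reticulocyte, still holds globin mRNA. Lung capillaries are filled with blood, and hemoglobin has also been described in alveolar epithelial cells.

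Total RNA of FACS-sorted cells was sequenced in 10 libraries, 2 for each of 5 lineages of adult mice. The Negative, Axin2:Pdgfra, Axin2 and Pdgfra lineages all came from Axin2CreERT2:tdT:PdgfraEGFP mice, and the Wnt2 lineage from Wnt2CreERT2:R26REFYP mice, so that mouse line and lineage cannot be told apart for Wnt2. CreERT2 is a recombinase that acts after tamoxifen and leaves a lasting reporter in cells that express the driver gene and in their progeny, whereas the PdgfraEGFP reporter follows the Pdgfra locus itself. The labels say of the Negative cells only that they were negative. Pdgfra library 1 is titled EGFP and shares its lineage label, GFP, with Pdgfra library 2. The Negative libraries are numbered 0 and 2, the others 1 and 2, and no label ties a library to an animal of its own. The p-values therefore cover the spread between libraries alone, and that spread may be technical. In sorted bulk samples, fewer cells of a type and less RNA per cell cannot be told apart.

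The values are log2 expression values without a stated length correction, so each gene is compared across libraries and not with other genes. Medians lay between 9.1 and 9.11 in all libraries, and each library has a lowest value, between 1 and 2.67, that 310 to 2728 of its genes share. The values are not counts, and the depth is unknown. All 10 mesenchymal markers examined lay above the lowest value in every library. Of these, 7 were lower and 1, Pdgfrb, was higher in Negative than in the mean of Axin2:Pdgfra, Axin2 and Pdgfra cells (limma, Benjamini-Hochberg adjusted over all genes), beside 2.7% of all genes lower and 1.92% higher. Pdgfra itself stood at 12.67 ± 0.95 in Negative libraries (SD, n = 2), a difference of -1.69 from that mean (SE 0.30, adjusted p = 0.00481).

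The sequences just before the transcription starts are given because the genes stood high in the same libraries and the globin genes come in pairs. They are the 250 bases upstream of each start in RefSeq's annotation of GRCm38.p6. The expression values were made on the older build mm9, so the coordinates belong to GRCm38.p6 alone. Capitals mark exact matches on either strand to 4 kinds of word, and a match is a run of letters, not a site shown to be used. The first is a GATA word, that is GATA with A or T before it and A or G after it. The second is CACCC, the word of KLF-type factors. The third is the CCAAT box, and the fourth is ATATAA, a form of the TATA box. Hba-a1 lies at chr11:32283422-32283671 on the plus strand, Hbb-bs at chr7:103827929-103828178 and Hbb-bt at chr7:103813924-103814173 on the minus strand, and Alas2 at chrX:150547167-150547416 on the plus strand, each read 5′ to 3′ along its gene.
Hba-a1: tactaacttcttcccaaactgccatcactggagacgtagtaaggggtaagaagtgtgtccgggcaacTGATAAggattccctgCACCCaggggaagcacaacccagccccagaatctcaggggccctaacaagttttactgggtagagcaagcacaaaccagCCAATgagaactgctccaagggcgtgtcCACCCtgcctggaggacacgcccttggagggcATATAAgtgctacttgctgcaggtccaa
Hbb-bs: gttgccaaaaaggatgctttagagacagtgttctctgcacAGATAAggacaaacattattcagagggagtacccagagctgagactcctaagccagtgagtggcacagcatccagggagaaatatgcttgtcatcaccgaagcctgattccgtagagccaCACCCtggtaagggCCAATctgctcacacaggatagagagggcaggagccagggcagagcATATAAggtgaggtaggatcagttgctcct
Hbb-bt: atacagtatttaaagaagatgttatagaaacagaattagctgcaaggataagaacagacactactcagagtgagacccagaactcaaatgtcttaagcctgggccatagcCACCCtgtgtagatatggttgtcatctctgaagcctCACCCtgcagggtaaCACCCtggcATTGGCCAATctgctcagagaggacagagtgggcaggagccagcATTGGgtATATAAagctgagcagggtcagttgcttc
Alas2: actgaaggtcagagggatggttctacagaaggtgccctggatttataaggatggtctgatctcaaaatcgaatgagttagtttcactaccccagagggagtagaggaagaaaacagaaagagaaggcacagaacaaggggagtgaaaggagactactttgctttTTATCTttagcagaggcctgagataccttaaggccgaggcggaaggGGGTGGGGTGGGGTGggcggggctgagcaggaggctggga

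The window of Hba-a2, at chr11:32296242-32296491 on the plus strand, shared an unbroken run of 247 bases with that of Hba-a1 and held the same matches. The longest run shared by the Hbb-bs and Hbb-bt windows was 14 bases. A GATA word was found in the windows of 4 of the 5 genes, with no match in Hbb-bt, beside 26.5% of 32851 annotated windows of the same length. CACCC was found in 5 of 5 (52.0% of windows), CCAAT in 4 (33.8%) and ATATAA in 4 (9.1%), the last 2 words without a match in Alas2. All 4 kinds of word stood together in Hba-a1, Hba-a2 and Hbb-bs, and in 0.508% of windows. In Hba-a1 the GATA word began at position -183 from the start, the CCAAT word at -88 and the ATATAA word at -28. In Hbb-bs they began at -210, -76 and -30.

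All 5 genes were high in both Negative libraries and lower in each of the 8 others. The lowest Negative value exceeded the highest value elsewhere by 3.53 (Alas2) to 4.96 (Hba-a1) log2 units. Among all 14177 genes, 826 (5.83%) had both Negative libraries above the 8 others, and 13 (0.0917%) by at least the gap of Alas2, the 5 genes being 5 of those 13. Since the genes were chosen for this pattern, nothing is read from these shares.

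Hba-a1, an alpha-globin gene, stood at 14.61 and 14.50 in Negative libraries 0 and 2, at 9.46 and 5.40 in Wnt2, 6.89 and 8.80 in Axin2:Pdgfra, 6.46 and 6.43 in Axin2, and 9.54 and 7.21 in Pdgfra libraries 1 and 2. The Negative mean of 14.56 ± 0.08 (SD, n = 2) lay 7.00 (SE 1.05) above the mean of the other 3 lineages of the same mouse line. Below Negative came Pdgfra, Axin2:Pdgfra, Wnt2 and Axin2 in falling order of means, and each neighbouring pair among these overlapped. Hba-a2, its near copy, stood at 13.50 and 12.45 in Negative, 7.68 and 1.75 in Wnt2, 3.85 and 6.01 in Axin2:Pdgfra, 4.74 and 4.64 in Axin2, and 7.29 and 4.17 in Pdgfra libraries. The order of lineages was that of Hba-a1, again with overlap of every neighbouring pair below Negative, and the Negative mean was 7.86 (SE 1.62) above the mean of Axin2:Pdgfra, Axin2 and Pdgfra.

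Hbb-bs, a beta-globin gene, stood at 15.00 and 14.62 in Negative libraries. Its values were 9.98 and 5.77 in Wnt2, 6.85 and 5.93 in Axin2:Pdgfra, 7.59 and 7.69 in Axin2, and 9.99 and 9.32 in Pdgfra libraries. The means fell in the order Negative, Pdgfra, Wnt2, Axin2 and Axin2:Pdgfra. Pdgfra overlapped Wnt2 and Wnt2 overlapped Axin2, while both Axin2 libraries lay above both Axin2:Pdgfra libraries, with means 1.25 apart. The Negative mean was 6.91 (SE 0.93) above the mean of Axin2:Pdgfra, Axin2 and Pdgfra.

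Hbb-bt, the other adult beta-globin gene, stood at 13.96 and 13.03 in Negative, 8.13 and 1.95 in Wnt2, 5.40 and 7.89 in Axin2:Pdgfra, 6.22 and 4.83 in Axin2, and 6.20 and 4.93 in Pdgfra libraries. Axin2:Pdgfra was second here, followed by Pdgfra, Axin2 and Wnt2, and all neighbours below Negative overlapped. The Negative mean was 7.58 (SE 1.52) above the mean of Axin2:Pdgfra, Axin2 and Pdgfra. Alas2 stood at 12.89 and 12.02 in Negative, 8.41 and 4.30 in Wnt2, 8.13 and 5.41 in Axin2:Pdgfra, 2.64 and 1.75 in Axin2, and 7.59 and 8.50 in Pdgfra libraries. The value of Axin2 library 2 is the lowest value of that library. Alas2 thus differed from the globin genes in its low end, since both Axin2 libraries lay below all 8 libraries of the other lineages, the Axin2 mean being 4.16 under that of Wnt2. Pdgfra, Axin2:Pdgfra and Wnt2 overlapped with their neighbours, and the Negative mean was 6.78 (SE 1.35) above the mean of Axin2:Pdgfra, Axin2 and Pdgfra.

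**Figure D1:**
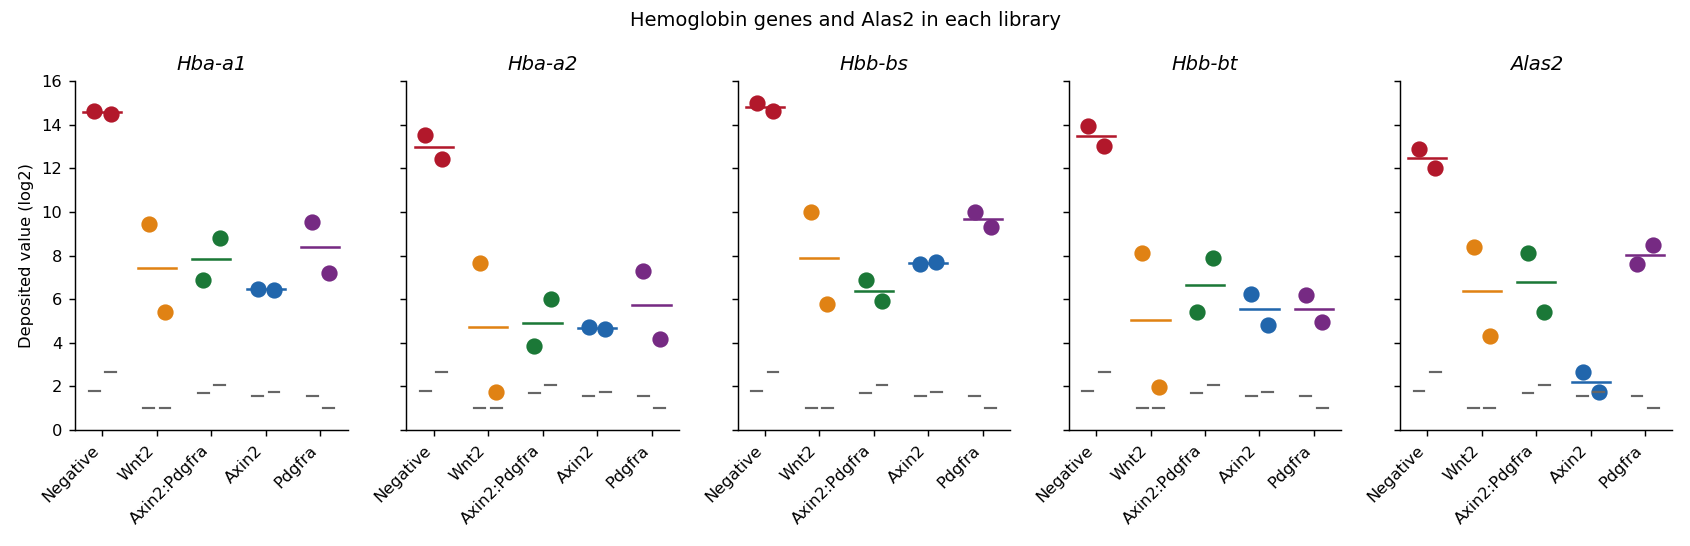
Deposited log2 value (vertical axis) of the 5 genes in each of the 10 libraries, by lineage; points are libraries, coloured lines the mean of 2, and short grey lines the lowest value of that library. Both Negative libraries lie above all others for every gene, by 3.53 to 4.96 log2 units, and in Wnt2 the first library lies above the second for every gene.

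For these 5 genes the Wnt2 libraries were less alike than those of any other lineage. All 5 genes were higher in Wnt2 library 1 than in library 2, by 4.06 (Hba-a1), 5.93 (Hba-a2), 4.22 (Hbb-bs), 6.18 (Hbb-bt) and 4.12 (Alas2) log2 units. The largest gap between the Negative libraries was 1.06, for Hba-a2. Against the mean of Axin2:Pdgfra, Axin2 and Pdgfra, the Wnt2 mean differed by -0.87 (Hbb-bt) to 0.68 (Alas2), with SEs of 0.93 to 1.62. Without Wnt2 library 1 these differences were -3.96 to -1.37, and without Wnt2 library 2 they were 1.91 to 2.74, so a single library set their sign. The Negative differences, with each library left out in turn, stayed between 6.33 and 8.39 for the 5 genes.

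**Figure D2:**
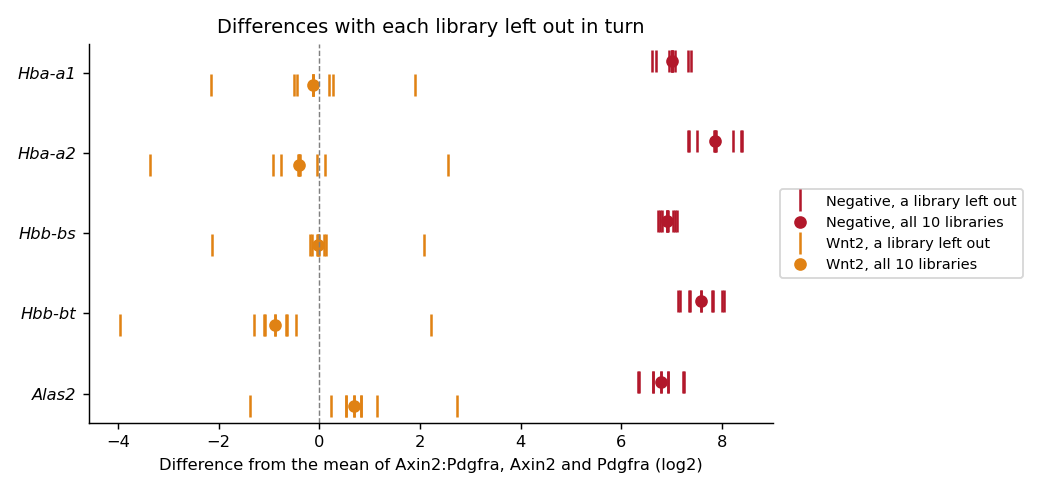
Log2 difference (horizontal axis) of Negative and of Wnt2 from the mean of Axin2:Pdgfra, Axin2 and Pdgfra for each gene; dots use all 10 libraries and ticks leave out 1 library each. The Negative ticks span 6.33 to 8.39, while the Wnt2 ticks lie on either side of 0 for every gene.

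The labels give 2 second-index sequences, and each Negative and Wnt2 library carries a different one of the pair. Within the set of Negative library 0, Wnt2 library 1 and 4 libraries of Axin2:Pdgfra, Axin2 and Pdgfra, the Negative library was higher than the mean of those 4 by 7.37 (Hbb-bs) to 8.62 (Hba-a2). Within the set of Negative library 2, Wnt2 library 2 and 2 libraries of Axin2:Pdgfra and Pdgfra, it was higher by 4.16 (Alas2) to 7.23 (Hbb-bt). The Wnt2 library was higher by 2.16 (Hbb-bt) to 3.84 (Alas2) within the first set and lower within the second, with differences of -3.85 (Hbb-bt) to -2.66 (Hbb-bs). For Wnt2, the index set and the library cannot be told apart.

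The measured difference between the copies varied among libraries, and some of the values lay near the lowest of their library. In Wnt2 library 2, with a lowest value of 1, Hba-a2 stood at 1.75 and Hbb-bt at 1.95. Hba-a1 was above Hba-a2 in 10 of 10 libraries, by 1.11 and 2.05 log2 units in Negative libraries 0 and 2 and by 1.72 to 3.66 (median 2.52) in the 8 others. Hbb-bs was above Hbb-bt in 9 of 10, by 1.04 and 1.59 in the Negative libraries and by -1.96 to 4.39 (median 2.36) in the others, the exception being Axin2:Pdgfra library 2. These differences are not adjusted for length, and transcripts of 699 (Hba-a1), 554 (Hba-a2), 628 (Hbb-bs) and 703 (Hbb-bt) bases stand in the GENCODE M21 annotation.

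Of all stretches of 50 bases in the Hba-a1 transcript, 67.5% also occur in Hba-a2, and 86.9% of those of Hba-a2 occur in Hba-a1. For the beta pair the shares were 65.8% of Hbb-bs and 58.3% of Hbb-bt. How reads that match both copies were counted is not given in the sources used here, so the split within a pair is uncertain. A sum of raw counts over a pair would not depend on that split where such reads were all counted. The deposited values are not counts and look quantile normalized, so their linear sums may depend on it. Summed Hba values differed from summed Hbb values by -0.41 and -0.22 log2 units in Negative libraries 0 and 2. In the 8 others this difference, Hba minus Hbb, ran between -2.01 and 0.77 (median -0.43) and was above 0 in Axin2:Pdgfra library 2 only.

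**Figure D3:**
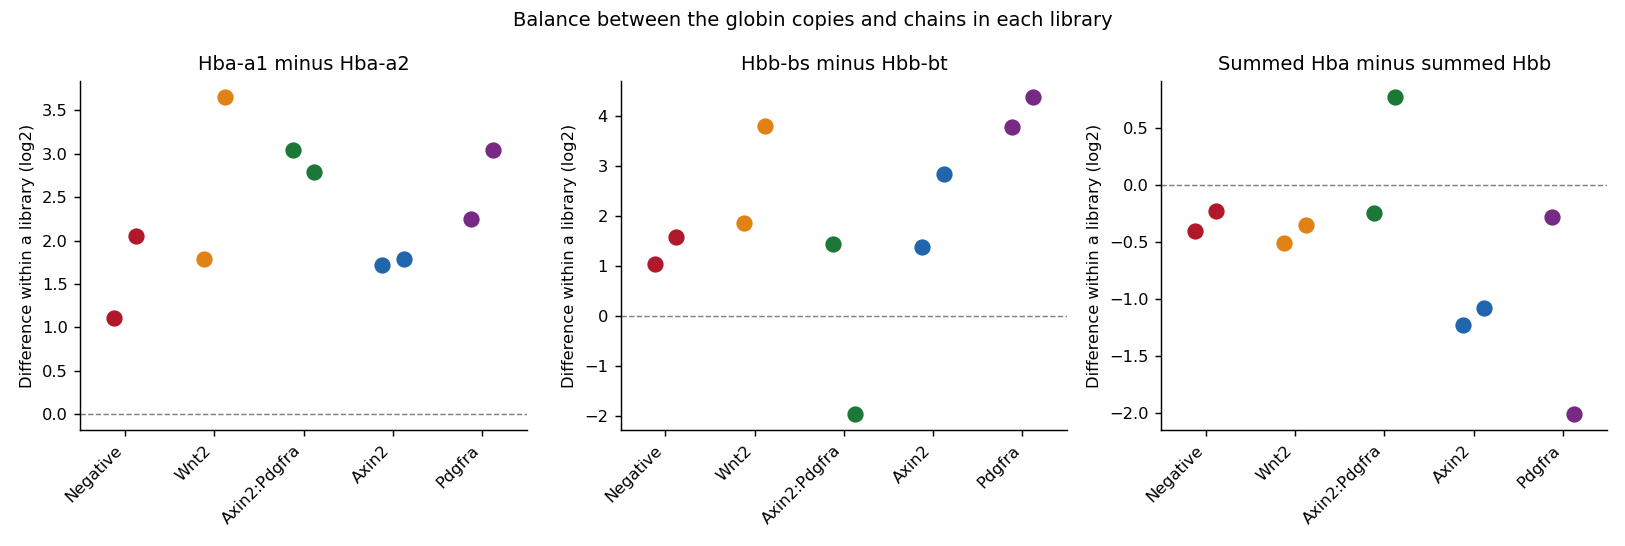
Within-library log2 difference (vertical axis, a scale of its own in each panel) between Hba-a1 and Hba-a2, between Hbb-bs and Hbb-bt, and between the summed alpha and summed beta genes; points are libraries and the dashed line marks 0. Hba-a1 exceeds Hba-a2 in 10 of 10 libraries, and Axin2:Pdgfra library 2 stands alone below 0 for the beta pair and above 0 for the sums.

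Over the 8 libraries outside the Negative lineage, Pearson's r between 2 globin genes was 0.387 to 0.937 (6 pairs; Spearman's rho 0.31 to 0.833), and between Alas2 and a globin gene 0.3 to 0.573 (4 pairs; rho 0.143 to 0.619). These are descriptions over few libraries that share groups. Over all 10 libraries, each gene was set against the mean profile of the other 4 and ranked among 14050 named genes. Hba-a1 had r = 0.983 and Hba-a2 0.967, both at rank 1, Hbb-bs 0.928 at rank 2, Hbb-bt 0.935 at rank 3, and Alas2 0.82 at rank 56. The genes were chosen for their high values in the Negative libraries, which enter these ranks, so nothing is read from them.

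Outside the 5 genes, the 10 with the highest r against their mean profile over the 10 libraries were Fabp1 (0.947), Trp53bp2 (0.931), Tlr5 (0.929), Atpaf1 (0.912), Diaph3 (0.896), Csf3r (0.89), Cldn23 (0.89), Pctp (0.886), Rassf7 (0.886) and Themis2 (0.886). They encode proteins of unlike kinds, among them a fatty acid binding protein (Fabp1), a p53-binding protein (Trp53bp2), the flagellin receptor (Tlr5), the receptor for granulocyte colony-stimulating factor (Csf3r) and a claudin (Cldn23). Trp53bp2 stood at 14.02 and 14.36 in Negative libraries and at 10.98 to 12.12 (median 11.75) in the 8 others. Csf3r stood at 9.78 and 9.40 in Negative libraries, and at 8.33 in Wnt2 library 1 against the lowest value in Wnt2 library 2. Both Negative libraries lay above all others for 9 of the 10 genes, beside 5.83% of all genes. The exception was Rassf7, with 6.58 in Negative library 2 against 7.01 in Pdgfra library 1. The 10 were picked by likeness to a profile high in the Negative libraries, so nothing is read from this count.

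The 8 genes outside the 5 whose Negative libraries stood clear of all others by at least 3.53 were Marveld3, Cldn23, Rnf43, Tlr5, Epn3, Lrrc8e, Tent5b and Shtn1, named here after their values were seen. Marveld3 and Cldn23 encode tight junction proteins. Marveld3 stood at 10.72 and 10.83 in the Negative libraries and at no more than 4.17 elsewhere.

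Most other genes of heme, iron and red cell biology did not pass the test. Of 85 listed genes, 59 were in the tables and 58 were tested for Negative minus the mean of Axin2:Pdgfra, Axin2 and Pdgfra, and 2 rose and 3 fell at a limma adjusted p under 0.05. Among all 14177 genes, 1.92% rose and 2.7% fell in this comparison, 4.62% in either direction. The median difference of the 58 was -0.05, beside -0.03 for all genes. For Wnt2 minus the same mean, none of the 58 rose and 1, Cygb, fell, beside 0.275% and 1.12% of all genes (1.4% in either direction), with a median of -0.11 beside 0.11. The F-test across the 5 lineages called 4 of the 58, beside 8.2% of all genes. At an unadjusted p under 0.05, 8 of the 58 were higher and 5 lower in Negative, beside 8.21% and 10.7% of all genes. At that level none was higher and 6 were lower in Wnt2, beside 5.64% and 6.34% of all genes.

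None of the 8 heme synthesis enzymes other than Alas2 passed in either comparison (limma; at an unadjusted p under 0.05, 1 higher in Negative, beside 8.21% of all genes, and none in Wnt2, beside 12.0% in either direction). Their median in Negative was -0.27. Alas1, the housekeeping form of aminolevulinate synthase, stood at 11.50 ± 0.55 in Negative libraries (SD, n = 2) and differed by -0.36 (SE 0.44, limma adjusted p = 0.714). Fech, which inserts iron into the ring, differed by -0.62 (SE 0.50, adjusted p = 0.551). Cpox, coproporphyrinogen oxidase, named after its values were seen, had the largest difference of the list, 3.92 (SE 1.48, adjusted p = 0.161). Its Negative values were 11.21 and 8.26, and Pdgfra library 2 with 8.47 overlapped them.

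Of 16 tested genes for iron supply and heme transport, none rose in Negative and 1 fell. Steap3, the ferrireductase that frees iron in endosomes of red cell precursors, stood at 11.42 and 8.70 in Negative libraries 0 and 2, and at 11.20 to 13.28 in Axin2:Pdgfra, Axin2 and Pdgfra libraries. It fell by 2.31 log2 units (SE 0.55, limma adjusted p = 0.029). The call held in 4 of the 10 fits that leave out a library, and ended without Axin2 library 2, either Axin2:Pdgfra library, either Pdgfra library or Negative library 2. In the fit without Negative library 2 the difference was -0.95 (adjusted p = 0.341). The ferritin chains Fth1 (-0.30, SE 0.20, adjusted p = 0.459) and Ftl1 (-0.34, SE 0.26, adjusted p = 0.528), which store iron, did not pass, nor did Tfrc, the transferrin receptor, picked out after its value was seen (0.45, SE 0.98, adjusted p = 0.848). Slc48a1, a heme transporter, passed the F-test (adjusted p = 0.0279), with 12.43 and 12.20 in Negative, 11.44 and 11.93 in Wnt2, 12.47 and 12.65 in Axin2:Pdgfra, 12.64 and 12.45 in Axin2, and 9.88 and 10.96 in Pdgfra libraries. Its low lineage was Pdgfra, the one second highest for 4 of the 5 genes.

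Of 7 genes for heme breakdown and hemoglobin clearance, 1 fell and none rose in Negative. Lrp1, a receptor that takes up heme bound to hemopexin among many other ligands, stood at 15.19 and 14.98 in Negative libraries and 15.80 to 16.14 in Axin2:Pdgfra, Axin2 and Pdgfra libraries. It fell by 0.82 log2 units (SE 0.17, limma adjusted p = 0.0127), and without Negative library 2 the adjusted p was 0.105. The heme oxygenases, which open the heme ring, did not pass, with Hmox1 at -0.54 (SE 1.19, adjusted p = 0.849) and Hmox2 at 0.29 (SE 0.74, adjusted p = 0.872).

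Of 2 other globins tested, 1 fell in Negative and none rose. Cygb, cytoglobin, a globin of fibroblasts and related cells, stood at 9.07 and 5.55 in Negative libraries 0 and 2, and at 7.85 and 6.12 in Wnt2. It stood at 12.92 and 12.87 in Axin2:Pdgfra, 9.73 and 11.25 in Axin2, and 11.95 and 12.78 in Pdgfra libraries. Both Negative and both Wnt2 libraries lay below all 6 of these. Against their mean, Cygb fell by 4.60 in Negative (SE 0.84, limma adjusted p = 0.00638) and by 4.93 in Wnt2 (SE 0.84, adjusted p = 0.00928), 2 comparisons that share those 6 libraries. Without Negative library 2 the Negative difference was -2.85 (adjusted p = 0.0825), and without Wnt2 library 2 the Wnt2 difference was -4.07 (adjusted p = 0.207). Ngb, neuroglobin, differed by -2.66 in Negative (SE 1.90, adjusted p = 0.495) and lay at the lowest value in 3 libraries. The embryonic globins, myoglobin and the chaperone Ahsp were not analysed here.

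None of 8 erythroid transcription factors and receptors passed in either comparison (limma; at an unadjusted p under 0.05, 2 higher and 1 lower in Negative, beside 18.9% of all genes in either direction, and 1 lower in Wnt2, beside 12.0%). Their median in Negative was 0.86. Tal1, which acts with GATA1 in red cell precursors and is also used by endothelium and megakaryocytes, had the largest difference, 4.42 (SE 1.67, limma adjusted p = 0.16), and is named after its value was seen. Ldb1, a cofactor of that complex, differed by -0.71 (SE 0.49, adjusted p = 0.479) and Stat5b, a signal transducer of the erythropoietin receptor, by -1.07 (SE 0.46, adjusted p = 0.22). Gata1, Klf1, Gfi1b and Bcl11a were not analysed here.

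Of 17 genes for red cell membrane and cytosol, 2 rose in Negative and none fell, with a median of 0.48. Mkrn1, a ubiquitin ligase, stood at 12.70 and 12.82 in Negative libraries and at 9.25 to 11.22 in Axin2:Pdgfra, Axin2 and Pdgfra libraries, and rose by 2.26 (SE 0.50, limma adjusted p = 0.0181). Cat, catalase, which breaks down hydrogen peroxide in red cells and most other cells, stood at 13.75 and 13.93 in Negative and at 11.60 to 12.82 in those libraries, and rose by 1.54 (SE 0.35, adjusted p = 0.0237). Each stood clear of every other library, and the 2 differences are well under those of the globins. The Mkrn1 call ended without Negative library 0, Negative library 2 or Pdgfra library 2 (adjusted p up to 0.121). The Cat call ended without Axin2 library 1 or any 1 of the Negative or Pdgfra libraries (adjusted p up to 0.152). Bpgm, the enzyme that makes the bisphosphoglycerate which lowers the oxygen affinity of hemoglobin, stood at 12.67 and 11.35 in Negative libraries and 8.35 to 11.00 in Axin2:Pdgfra, Axin2 and Pdgfra libraries. With a difference of 2.25 (SE 0.61) its adjusted p was 0.0501, on the other side of the threshold, and it is named after its values were seen.

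Genes of the red cell membrane and its skeleton did not pass. Tmod1, a capping protein of actin, stood at 11.05 in both Negative libraries and at 3.62 to 9.76 in Axin2:Pdgfra, Axin2 and Pdgfra libraries, a difference of 4.11 (SE 1.68, limma adjusted p = 0.195). Sptb, a spectrin gene, differed by 3.29 (SE 1.56, adjusted p = 0.274), these 2 named after their values were seen. The water channel Aqp1 (0.43, SE 0.34, adjusted p = 0.54) and the peroxiredoxin Prdx2 (-0.68, SE 0.36, adjusted p = 0.331) had the highest mean levels among those that did not pass.

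**Figure D4:**
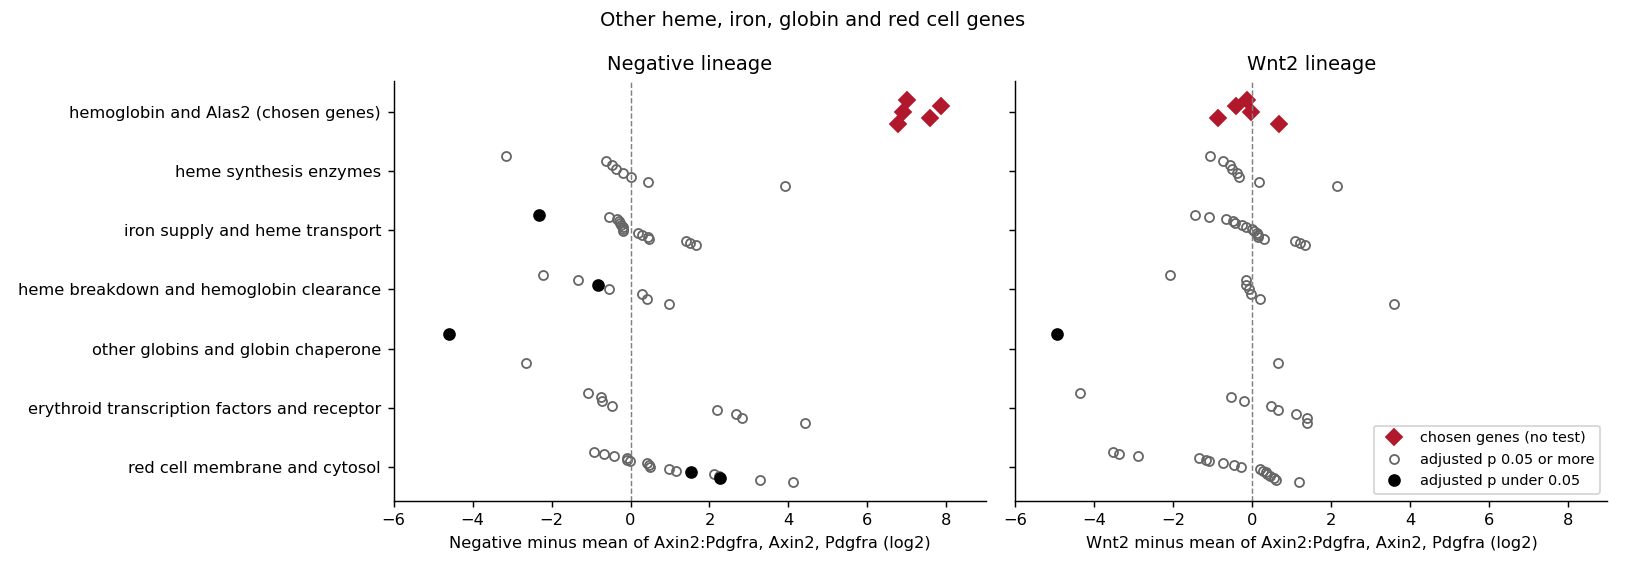
Log2 difference from the mean of Axin2:Pdgfra, Axin2 and Pdgfra (horizontal axis) for Negative on the left and Wnt2 on the right; red diamonds are the 5 genes, which carry no test, and circles are the other genes of 6 lists, filled where the limma adjusted p is under 0.05. The 5 genes lie between 6.78 and 7.86 in Negative, beyond every gene of the lists, and between -0.87 and 0.68 in Wnt2.

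Markers of other cell types moved with the same libraries, and their part in the hemoglobin values was not tested. Of 7 alveolar type 1 epithelial markers, 7 rose in Negative (limma, median difference 3.27), beside 1.92% of all genes. Their summed level, the log2 of summed linear values, was 17.51 to 17.66 in Negative libraries and 13.13 to 15.54 in the 8 others. Ager, the best known of them, stood at 15.77 and 15.32 in Negative and 10.54 to 12.96 elsewhere. The Negative and the other libraries did not overlap. Of 7 airway and pan-epithelial markers 3 rose (median 3.89), with sums of 16.19 to 16.39 in Negative and 12.23 to 15.75 elsewhere. Of 5 mesothelial markers 2 rose (median 3.03), with sums of 13.56 to 13.60 in Negative and 8.47 to 12.91 elsewhere. The alveolar type 1, airway and mesothelial sums, like the 5 genes and the neutrophil sum (10.17 to 11.22 against 3.33 to 9.28), were higher in Negative without overlap. Among all genes, 5.83% had both Negative libraries above the 8 others. Single markers did not all follow these sums. Epcam, Foxj1 and Scgb1a1 of the airway list overlapped with other libraries. Of the neutrophil list only Csf3r stood clear, a gene already picked for its likeness to the 5. S100a8 and S100a9 overlapped, and Retnlg lay at the lowest value of both Negative libraries.

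Blood and vessel markers mostly did not pass. None of 3 tested neutrophil markers did (limma, median 6.45, 2 higher at an unadjusted p under 0.05, beside 8.21% of all genes), and their summed level, over 4 markers in the tables, was 10.17 and 11.22 in Negative libraries and 3.33 to 9.28 in the others. In Wnt2 that sum was 9.28 in library 1 and 3.33 in library 2, and 3 of the 4 markers lay at the lowest value in library 2. The lymphocyte (9.59 and 5.05), platelet (7.73 and 6.20) and macrophage sums (14.07 and 13.48) were likewise higher in Wnt2 library 1, as were all 5 genes. The mesenchymal sum was also higher in Wnt2 library 1, at 18.50 against 18.18 in library 2. The endothelial, mesothelial and all 3 epithelial sums were higher in Wnt2 library 2. Of 10 macrophage and monocyte markers 1, Csf1r, rose (3.32, SE 0.87, limma adjusted p = 0.0447), beside 1.92% of all genes. The summed macrophage ranges overlapped, with 14.79 to 15.67 in Negative and 13.31 to 15.04 elsewhere. None of 2 tested platelet and megakaryocyte markers, 4 lymphocyte, 11 endothelial or 9 alveolar type 2 markers passed (limma; 1, 0, 4 and 5 higher at an unadjusted p under 0.05, beside 8.21% of all genes). Their sums overlapped between Negative and the other libraries, with 7.74 to 10.76 against 3.65 to 9.19 for platelets and 7.94 to 10.21 against 5.05 to 10.05 for lymphocytes. Endothelial sums were 15.87 to 17.11 in Negative and 14.41 to 16.29 elsewhere, and alveolar type 2 sums 16.07 to 17.13 and 14.54 to 16.81. Between the Negative libraries, the alveolar type 1 (17.66 and 17.51 in libraries 0 and 2), airway (16.39 and 16.19) and mesothelial sums were higher in library 0. All 5 genes were higher there too, but not every marker of these lists was. Hopx (14.27 and 14.60) and Akap5 (15.48 and 15.60) of the alveolar type 1 list were higher in library 2. So were Epcam, Nkx2-1 and Scgb1a1 of the airway list. The mesothelial sums lay close together, at 13.60 and 13.56 in libraries 0 and 2, and the genes of that list were split. Krt19 (13.12 and 12.12) and, by little, Gpm6a (11.56 and 11.55) were higher in library 0. Lrrn4 (7.83 and 10.82), Msln and Upk3b were higher in library 2. The neutrophil, macrophage, platelet, lymphocyte, endothelial, alveolar type 2 and mesenchymal sums were higher in library 2. The mesenchymal sum was 17.02 to 17.27 in Negative and 17.85 to 18.56 elsewhere.

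**Figure D5:**
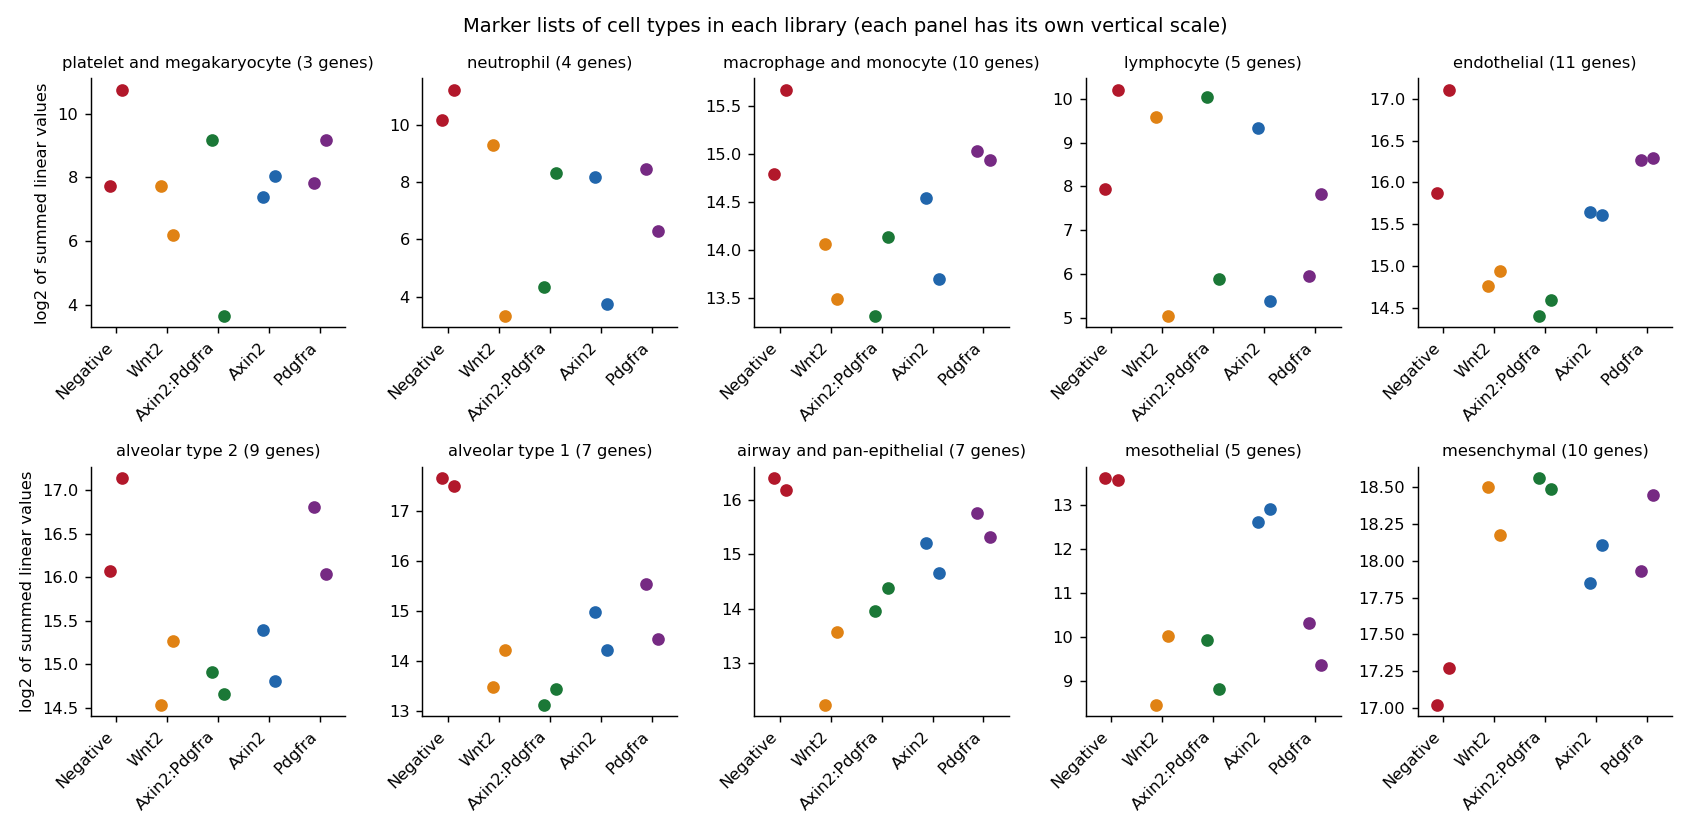
Log2 of the summed linear values of each marker list (vertical axis, a scale of its own in each panel) in each library, by lineage; points are libraries. Alveolar type 1 (17.51 to 17.66 in Negative), airway, mesothelial and neutrophil sums are highest in both Negative libraries, the mesenchymal sum is lowest there, and the other sums overlap. Some single airway, mesothelial and neutrophil markers, not drawn here, overlap too.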

How the data were processed

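RNA-seq of 10 libraries was deposited as a log2 value per gene and library; the scale was inferred from the values, and the depth is unknown. The authors used STAR, limma and the mouse build mm9, per the submitters' processing notes. Versions, annotation and read counter were not given in the sources used here. Distributions of the deposited values are near-identical between libraries, as quantile normalization leaves them, so a sum over genes is relative to the library. Symbols were matched to 14720 of 14854 identifiers. A gene was kept where 2 or more libraries had a log2 value of 6 or higher. All libraries entered a linear model with a mean per lineage, with 5 residual degrees of freedom (R 4.3.3 with limma 3.58.1, lmFit and eBayes with trend and robust, two-sided, Benjamini-Hochberg adjustment over 14177 genes, threshold 0.05). The script was tested on simulated data. Named genes were, per list, up to 5 that passed and the 2 with the highest mean level that did not, and the 10 genes most like the mean profile. The members and lists were chosen with earlier results of these data known. Genes at the lowest value of a library were used as listed; the alternatives included a common floor at 2.666, other filters and normalization, and leaving out each library. Where a library was left out, the lone library of its lineage was assumed to vary like the other lineages.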

Additional observations from a re-analysis of the deposited data

How the results depend on the processing

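The Negative differences of the 5 genes kept their sign under every alternative run, at 6.33 to 8.39. With single libraries left out they were 6.62 to 7.39 for Hba-a1, 7.33 to 8.39 for Hba-a2, 6.73 to 7.10 for Hbb-bs, 7.12 to 8.05 for Hbb-bt and 6.33 to 7.24 for Alas2. The Wnt2 differences changed sign with the Wnt2 library left out, at -2.15 to 1.91 for Hba-a1, -3.37 to 2.56 for Hba-a2, -2.13 to 2.09 for Hbb-bs, -3.96 to 2.22 for Hbb-bt and -1.37 to 2.74 for Alas2. Counts of called genes were 592 to 1534 (1163 with all) for the F-test across lineages, 342 to 955 (655) for Negative and 35 to 298 (198) for Wnt2 with single libraries left out. They moved by over 1.5 times without either Axin2 library, either Wnt2 library or Pdgfra library 1 for the F-test, without Negative library 2 or Pdgfra library 2 for Negative, and without any Axin2, Pdgfra or Wnt2 library or Negative library 2 for Wnt2. Without trend and robust in eBayes they were 205, 181 and 45, and none of the named calls on Mkrn1, Cat, Steap3, Lrp1 and Cygb held (adjusted p 0.0844 to 0.343); the cause was not tested. Same-numbered libraries of Wnt2, Axin2:Pdgfra, Axin2 and Pdgfra did not deviate together (correlations of -0.06 to 0.03 over 6 pairs of lineages). This gave no sign of pairing but cannot exclude a shared animal or sort day, and Negative was left out. In a further fit the replicate number was a block. Number 0 belongs to Negative library 0 alone, so the Negative difference there rests on Negative library 2. The calls on Mkrn1 and Cat ended in it, as they did without Negative library 0. That fit cannot show whether the numbers pair libraries. Lineages of 2 libraries and an unknown depth limit what low values, such as those of Hba-a2 outside Negative, can show.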
